A study of Mus musculus with 12 samples.

Results

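Gad1, Gad2, Slc32a1 and Slc6a5 are the genes by which a neuron makes GABA, packs GABA and glycine into vesicles and takes glycine back up. They were picked by gene name from a table of read counts, where each symbol belonged to 1 of 40912 gene IDs, and the 4 genes were followed through all 12 libraries. All 4 passed the filter on low counts, which left 15905 genes. The libraries came from spinal cord of mice at postnatal day 21. They carried either of 2 bacTRAP transgenes, in which the ribosomal protein Rpl10a is fused to EGFP so that ribosomes of the expressing cells can be pulled down with the RNA they hold. TRAP_Chat is RNA pulled down for 4 h at 4 °C from the line Tg(Chat-EGFP/Rpl10a)DW167Htz, where the transgene is driven by Chat sequences (the gene for the enzyme that makes acetylcholine). PreIP_Chat is the RNA of that line before the pulldown, its input. TRAP_Snap25 and PreIP_Snap25 are the same fractions of the line Tg(Snap25-EGFP/Rpl10a)JD362Jdd, where Snap25 sequences drive it (Snap25 is expressed by most neurons). Each group had 3 libraries. The labels do not say whether these came from separate animals, so the p-values measure the spread between these libraries, which may be technical. The inputs carry the transgenes too, and no library came from mice without a transgene.

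Gad1 encodes GAD67 and Gad2 encodes GAD65, the enzymes that turn glutamate into GABA. Slc32a1 encodes VGAT, the vesicular transporter that GABA and glycine share, and Slc6a5 encodes GlyT2, which returns released glycine to the terminal for refilling of vesicles. In the spinal cord many inhibitory interneurons release both transmitters, and motor neurons, which use acetylcholine, receive them.

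The start regions of the 4 genes are printed because all 4 genes were lower in TRAP_Chat in the comparisons that follow. Each is the RefSeq window on GRCm38.p6 of 250 bases before and 50 after the gene's start, on the + strand, 5′ to 3′. Capitals mark matches on either strand to the E-box CANNTG, the core promoter motif TATAAA or the Sp1 motif GGGCGG, and no 2 matches overlap. The windows lie at chr2:70561879-70562178 for Gad1, chr2:22622077-22622376 for Gad2, chr2:158610508-158610807 for Slc32a1 and chr7:49910049-49910348 for Slc6a5.
Gad1: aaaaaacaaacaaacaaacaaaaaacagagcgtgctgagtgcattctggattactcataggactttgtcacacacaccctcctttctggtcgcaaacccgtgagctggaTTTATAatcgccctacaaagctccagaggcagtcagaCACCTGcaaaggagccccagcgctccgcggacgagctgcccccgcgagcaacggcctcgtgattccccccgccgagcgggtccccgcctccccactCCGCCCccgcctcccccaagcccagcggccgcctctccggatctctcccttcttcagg
Gad2: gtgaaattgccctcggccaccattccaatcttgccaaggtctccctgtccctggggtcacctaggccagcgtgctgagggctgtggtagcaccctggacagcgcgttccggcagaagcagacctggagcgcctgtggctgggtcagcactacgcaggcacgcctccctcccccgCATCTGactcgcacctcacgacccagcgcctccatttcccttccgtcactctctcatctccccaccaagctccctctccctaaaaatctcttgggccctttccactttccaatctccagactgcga
Slc32a1: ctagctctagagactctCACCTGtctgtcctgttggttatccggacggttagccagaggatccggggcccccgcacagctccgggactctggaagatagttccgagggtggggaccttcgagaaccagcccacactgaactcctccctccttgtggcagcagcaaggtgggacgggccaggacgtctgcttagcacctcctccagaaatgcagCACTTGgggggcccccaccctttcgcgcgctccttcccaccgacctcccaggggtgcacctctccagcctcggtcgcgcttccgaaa
Slc6a5: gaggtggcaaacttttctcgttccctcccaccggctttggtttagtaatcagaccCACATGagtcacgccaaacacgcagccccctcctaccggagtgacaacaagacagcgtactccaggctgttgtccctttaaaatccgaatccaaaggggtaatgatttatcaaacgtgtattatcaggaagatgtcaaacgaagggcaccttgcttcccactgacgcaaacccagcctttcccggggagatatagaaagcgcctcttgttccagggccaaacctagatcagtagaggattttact

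The E-box, which basic helix-loop-helix factors bind, matched once each in the windows of Gad1, Gad2 and Slc6a5 and at 2 places in that of Slc32a1. It stands in 72.3% of the 32851 promoter windows of the same length. TATAAA matched in the Gad1 window alone, on the reverse strand 141 bases before the start (offset -141), against 13.6% of all windows. GGGCGG also matched in the Gad1 window alone, on the reverse strand at offset -8, against 35.7% of all windows. CAGCACC, the core of the element bound by the repressor REST, had no match in the 4 windows and stands in 7.14% of all. Only this exact string was searched and near matches were not, so the windows may still hold a variant of the element. Those of Gad2 and Slc32a1 each hold tagcacc, which differs from the string in its first base alone. Whether REST binds there was not tested. The share of G and C was 60% for Gad1, 61.3% for Gad2, 63.3% for Slc32a1 and 49.7% for Slc6a5, beside a median of 52.7%. Slc6a5 has another start in the table, at chr7:49911450-49911749, with 44.3% G and C and 2 matches to CANNTG. Motif matches are descriptions of these letters only.

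Total counts ran from 10149346 to 20521699 per library. Levels are given in CPM (counts normalised to library size after scaling by the trimmed mean of M-values). By total counts alone, without that scaling, 3 counts correspond to between 0.146 and 0.296 CPM. The 2 mitochondrial ribosomal RNAs took 23.2% to 40.7% of counts in the inputs, 6.67% in TRAP_Chat replicate 1 and 0.209% to 0.680% in the other pulldowns. Chat was at 159 ± 46.4 CPM in TRAP_Chat and 22.2 ± 7.24 CPM in PreIP_Chat (SD, n = 3), so the labelled pulldown carried the transcript of the gene that drives its tag. Snap25 ran from 14983 to 16530 CPM in TRAP_Snap25 and from 8807 to 10576 CPM in PreIP_Snap25. The 6 motor neuron markers (Chat, Slc18a3, Slc5a7, Isl1, Mnx1 and Prph) summed to between 608% and 986% of the input mean in TRAP_Chat. No marker of neurons, oligodendrocytes or astrocytes was at 0 in any library.

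Ribosomes tagged in the Chat line held less of all 4 inhibitory transcripts than the input of that line. Gad1 was at 14, 17 and 15 CPM in TRAP_Chat, against 49.5, 48.9 and 45.4 CPM in PreIP_Chat. Gad2 was at 37.6, 31.2 and 34.5 CPM in TRAP_Chat, against 98.9, 122.7 and 122.6 CPM in PreIP_Chat. Every pulldown library lay below every input library for both GAD genes. Gad1 fell by 1.65 ± 0.23 on the log2 scale (SE), 3.13-fold, and Gad2 fell by 1.74 ± 0.23, 3.33-fold, with adjusted p = 0.000148 and 8.52e-05 (edgeR's quasi-likelihood test, Benjamini-Hochberg adjustment over all tested genes).

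The transporters fell in the same comparison. Slc32a1 was at 30.0, 9.97 and 26.8 CPM in TRAP_Chat, against 109, 101 and 73.9 CPM in PreIP_Chat. Slc6a5 was at 101, 61.7 and 137 CPM in TRAP_Chat, against 494, 516 and 471 CPM in PreIP_Chat. The groups did not overlap for either gene, and replicate 2 of TRAP_Chat was the lowest of its group for both. Slc32a1 fell by 2.09 ± 0.42 (adjusted p = 0.00207, 4.25-fold) and Slc6a5 fell by 2.30 ± 0.29 (adjusted p = 7.38e-05, 4.93-fold) in edgeR. Without replicate 2 of TRAP_Chat the log2 fold changes were -1.69 for Slc32a1 and -2.0 for Slc6a5. Without replicate 1, the pulldown with more mitochondrial RNA, they were -2.36 and -2.31, and those of Gad1 and Gad2 were -1.59 and -1.81. Each of these values with a library left out passed the threshold of 0.05. Of all tested genes 14.3% were called lower in this comparison (26.9% in either direction), and 26.1% had pulldown libraries that all lay below the inputs. The median log2 fold change was -1.91 over the 4 genes and -0.06 over all tested genes. In bulk fractions such as these, a smaller share of RNA from a cell type and less of a transcript per cell cannot be told apart.

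**Figure D1:**
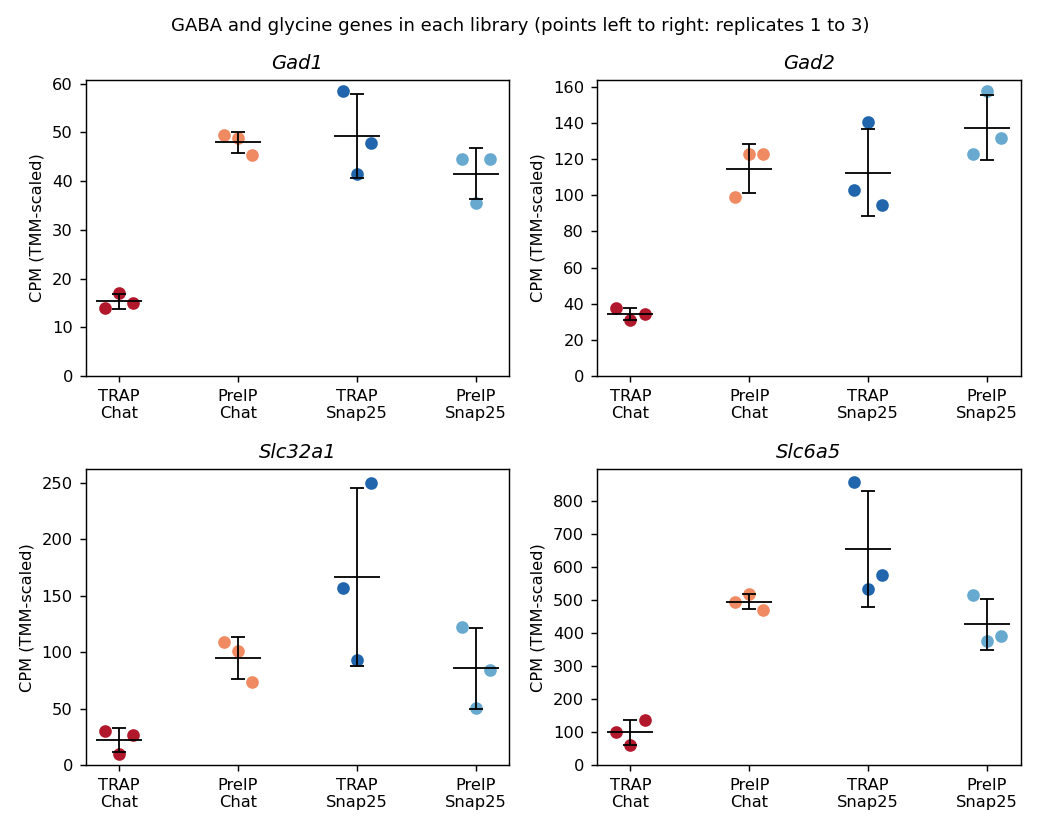
CPM (y axis, linear, from 0) of Gad1, Gad2, Slc32a1 and Slc6a5 in each library, by group (x axis); points are replicates 1 to 3, the line is the mean and the bars are the SD. TRAP_Chat lies below the other groups in every panel, for example at 14 to 17 CPM for Gad1.

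In the Snap25 line none of the 4 genes passed the test, which called 22.4% of all genes in either direction (9.69% higher and 12.7% lower). Gad1 was at 58.6, 41.5 and 47.8 CPM in TRAP_Snap25, against 44.5, 35.5 and 44.5 CPM in PreIP_Snap25, and the groups overlapped. Its log2 fold change was 0.25 with a 95% interval of -0.23 to 0.72 (adjusted p = 0.463 in edgeR). Gad2 was at 102.7, 140.2 and 94.7 CPM in TRAP_Snap25, against 122.7, 157.5 and 131.6 CPM in PreIP_Snap25. Its groups overlapped too, and its log2 fold change was -0.29 with an interval of -0.75 to 0.18 (adjusted p = 0.378 in edgeR).

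The transporters had positive estimates in the Snap25 pulldown that missed the threshold after adjustment. Slc32a1 was at 157, 93.3 and 249.99 CPM in TRAP_Snap25, against 122, 50.8 and 84.1 CPM in PreIP_Snap25. The groups overlapped, and replicate 3 of TRAP_Snap25 was the highest library of the series for this gene. Its log2 fold change was 0.96 with an interval of 0.10 to 1.81 (adjusted p = 0.101, unadjusted p = 0.0304 in edgeR). Without replicate 3 of TRAP_Snap25 it was 0.53 (adjusted p = 0.356 in edgeR). Slc6a5 was at 855, 533 and 575 CPM in TRAP_Snap25, against 515, 375 and 390 CPM in PreIP_Snap25. Here every pulldown library lay above every input library, as for 16.6% of all tested genes. The log2 fold change of Slc6a5 was 0.62 with an interval of 0.03 to 1.21 (adjusted p = 0.125, unadjusted p = 0.0416 in edgeR). The median over the 4 genes was 0.43, with all tested genes at -0.00. With no filter on low counts Slc32a1 passed the threshold (log2 fold change 0.93, adjusted p = 0.00861 in edgeR), and no other setting tried called any of the 4 genes.

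The series title sets motor neurons against neurons in general, and the comparison of the pulldowns stands for it here. The tag follows Chat sequences, and whether motor neurons alone carried it was not tested. All 4 genes were lower in TRAP_Chat than in TRAP_Snap25, with no overlap of libraries for any of them. Slc32a1 averaged 22.3 ± 10.8 CPM in TRAP_Chat and 167 ± 78.8 CPM in TRAP_Snap25 (SD, n = 3 each), a log2 fold change of -2.90 ± 0.43 (adjusted p = 0.000599, 7.46-fold lower in edgeR). Slc6a5 averaged 100.01 ± 37.8 CPM in TRAP_Chat and 655 ± 175 CPM in TRAP_Snap25, a log2 fold change of -2.71 ± 0.30 (adjusted p = 8.51e-05, 6.54-fold lower in edgeR). Without TRAP_Snap25 replicate 3, the highest library for Slc32a1, the log2 fold changes were -2.48 for Slc32a1 and -2.79 for Slc6a5, so the order of these transporters rests on that library. The estimates of the GAD genes were smaller. Gad1 averaged 15.3 ± 1.55 CPM in TRAP_Chat and 49.3 ± 8.61 CPM in TRAP_Snap25, a log2 fold change of -1.69 ± 0.23 (adjusted p = 0.000303 in edgeR). Gad2 averaged 34.4 ± 3.18 CPM in TRAP_Chat and 113 ± 24.3 CPM in TRAP_Snap25, a log2 fold change of -1.71 ± 0.23 (adjusted p = 0.000230 in edgeR). Only 2.77% of all tested genes were called lower here (6.75% in either direction, 3.97% higher), and 9.47% had TRAP_Chat libraries that all lay below those of TRAP_Snap25. The median log2 fold change was -2.21 over the 4 genes and 0.01 over all tested genes.

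The log2 fold change of pulldown over input was more negative in the Chat line than in the Snap25 line for all 4 genes, tested as the difference of the 2 changes. This difference was -1.89 ± 0.32 for Gad1 (adjusted p = 0.00855), -1.45 ± 0.31 for Gad2 (adjusted p = 0.0334), -3.04 ± 0.58 for Slc32a1 (adjusted p = 0.0147) and -2.92 ± 0.40 for Slc6a5 (adjusted p = 0.00551) in edgeR's quasi-likelihood test. Of all tested genes 0.44% were called in this direction and 1.04% in either. The call of Gad2 was lost in 9 of 19 alternatives, 8 of which left out 1 library. These were TRAP_Chat replicates 2 and 3, each of the 3 PreIP_Chat libraries, TRAP_Snap25 replicate 2 and PreIP_Snap25 replicates 1 and 3, with adjusted p up to 0.118 in edgeR. The ninth scaled libraries by total counts without mitochondrial genes and gave Gad2 an adjusted p of 0.126. The call of Slc32a1 was lost without PreIP_Chat replicate 2 (adjusted p = 0.0527) and without PreIP_Snap25 replicate 3 (adjusted p = 0.0559 in edgeR), and those of Gad1 and Slc6a5 held in all 19. This comparison uses the same libraries as the 3 before it and is no independent evidence.

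The inputs of the lines gave no call for any of the 4 genes. Gad1 averaged 47.9 ± 2.23 CPM in PreIP_Chat and 41.5 ± 5.18 CPM in PreIP_Snap25, and its groups did not overlap. Gad2 averaged 115 ± 13.7 CPM in PreIP_Chat and 137 ± 18.1 CPM in PreIP_Snap25, and its groups did not overlap either, in the opposite order. Slc32a1 averaged 94.8 ± 18.5 and Slc6a5 494 ± 22.7 CPM in PreIP_Chat, against 85.7 ± 35.8 and 426 ± 76.9 CPM in PreIP_Snap25, with overlap for both. The log2 fold changes were 0.21 for Gad1, -0.26 for Gad2, 0.14 for Slc32a1 and 0.21 for Slc6a5 (adjusted p = 0.999831 for each in edgeR). Of all genes 8.04% had inputs that did not overlap (4.19% higher and 3.85% lower in PreIP_Chat), and 0% were called. At an unadjusted p under 0.05 there were 133 of 15905 genes, and DESeq2 called 1. That is fewer than a cut-off of 0.05 would give if no gene differed. The lack of calls therefore does not show that the inputs were alike.

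**Figure D2:**
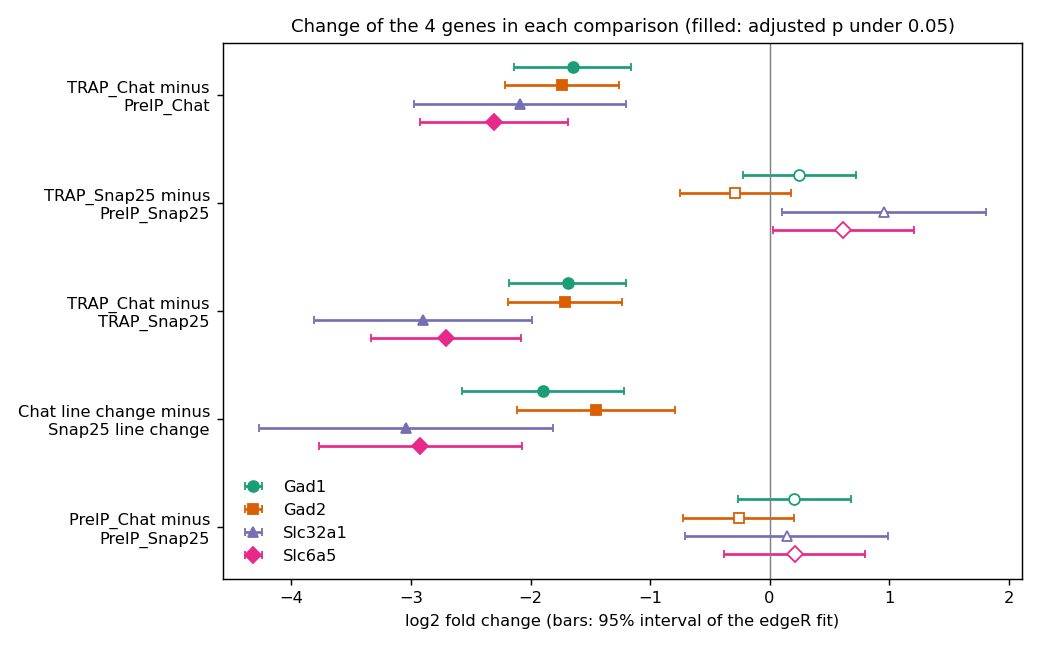
Log2 fold change (x axis) of the 4 genes in the 5 comparisons (y axis, first group over second), with the 95% interval of the edgeR fit as bars; filled symbols passed adjusted p under 0.05. The 12 filled symbols lie between -1.45 and -3.04, and the open ones belong to the Snap25 line and to the inputs.

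Set beside other transcripts as a percent of the mean of the line's own input, the 4 genes in TRAP_Chat lay in a range that overlapped that of the glial marker lists. Gad1 was at 29.1%, 35.5% and 31.2% in the TRAP_Chat libraries, Gad2 at 32.8%, 27.2% and 30.0%, Slc32a1 at 31.7%, 10.5% and 28.2%, and Slc6a5 at 20.5%, 12.5% and 27.8%. In the same libraries the 8 oligodendrocyte markers summed to 29.3%, 10.8% and 15.5%, the 7 astrocyte markers to 43.8%, 25.2% and 26.7%, and the 7 microglia markers to 15.1%, 15.3% and 17.6%. All 22 of these markers were called lower than in the input. The astrocyte sum was dominated by its most abundant member, the glycolytic enzyme gene Aldoc, which was at 65.1%, 39.4% and 37.2% of input, and the other 6 astrocyte markers summed to 25.4%, 12.8% and 17.7%. Replicate 2 was the lowest of the TRAP_Chat libraries for Gad2, Slc32a1, Slc6a5, the oligodendrocyte list and the astrocyte list, but not for Gad1 or the microglia list. The part of such RNA in the levels of the 4 genes was not tested.

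In TRAP_Snap25 the same percents were higher for the 4 genes. Gad1 was at 141%, 100.01% and 115% of the PreIP_Snap25 mean, Gad2 at 74.8%, 102% and 69.0%, Slc32a1 at 183%, 109% and 292%, and Slc6a5 at 201%, 125% and 135%. The oligodendrocyte list was at 11.6%, 9.30% and 28.5%, the astrocyte list at 39.1%, 52.3% and 67.2%, and the microglia list at 9.15%, 6.36% and 17.2%. Aldoc alone, which gave no call in this line (adjusted p = 0.926 in edgeR), was at 63.6%, 104% and 123%, and the other 6 astrocyte markers summed to 18.8%, 9.77% and 21.2%. Gad2 in replicate 3, at 69.0%, was thus close to the whole astrocyte list at 67.2% and above the sum without Aldoc. Replicate 3, highest for Slc32a1, was also highest for these 3 lists, and their part in its level was not tested. The general neuron list (Snap25, Syt1, Stmn2, Rbfox3, Tubb3 and Eno2) was at 151% to 177% in TRAP_Snap25 and at 116% to 184% in TRAP_Chat. Without Snap25, its most abundant member, the list was at 129%, 119% and 239% in TRAP_Snap25 and at 160%, 192% and 229% in TRAP_Chat. In each line 1 of the 6 neuron markers was called higher, Stmn2, and Syt1, a synaptic vesicle protein gene, had a log2 fold change of -0.59 in the Chat line that missed the threshold (adjusted p = 0.132 in edgeR).

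**Figure D3:**
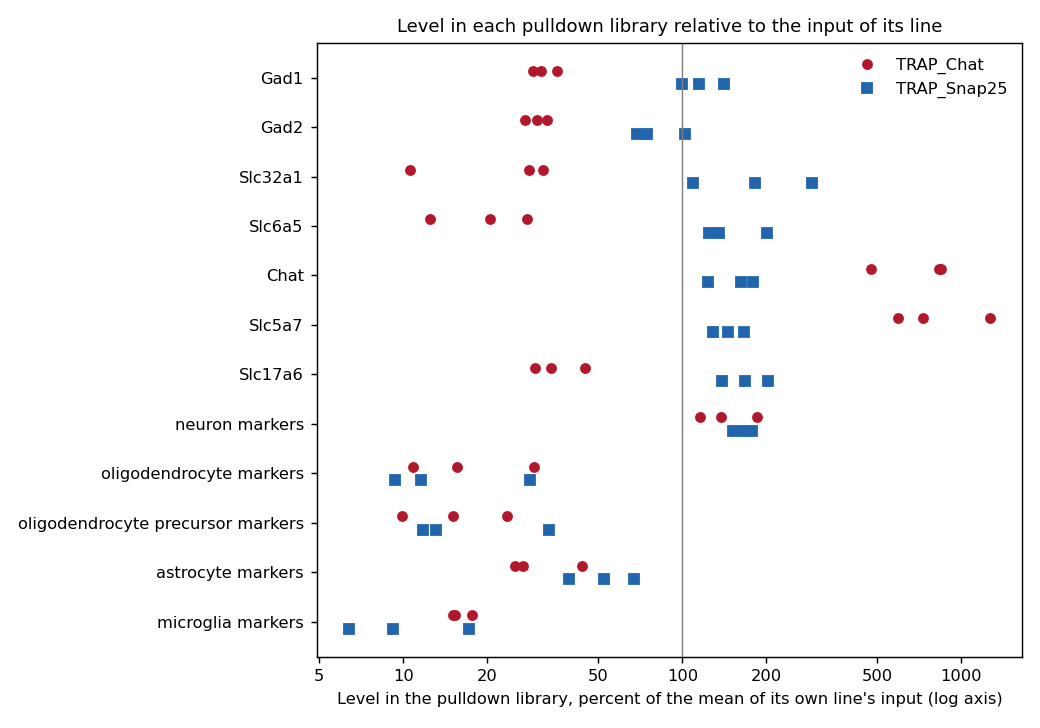
Level in each pulldown library as a percent of the mean of its own line's input (x axis, log scale), for the 4 genes, genes of other transmitters and summed marker lists (y axis); circles are TRAP_Chat and squares TRAP_Snap25. In TRAP_Chat the 4 genes lie between 10.5% and 35.5%, and in TRAP_Snap25 between 69.0% and 292%.

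Genes of the other transmitters were compared at the same libraries. Slc17a6, the vesicular glutamate transporter VGLUT2, averaged 34.4 ± 7.50 CPM in TRAP_Chat and 95.1 ± 12.5 CPM in PreIP_Chat, a log2 fold change of -1.47 (adjusted p = 0.000393 in edgeR). It averaged 157 ± 29.4 CPM in TRAP_Snap25 and 92.5 ± 9.35 CPM in PreIP_Snap25, a rise of 0.76 (adjusted p = 0.0248 in edgeR). The excitatory transporter thus fell in the Chat pulldown as the 4 inhibitory genes did. It passed the test upward in the Snap25 pulldown and they did not. Its rise of 0.76 was no larger than the 0.96 estimated for Slc32a1, however. The log2 ratio of Slc32a1 to Slc17a6 was 0.18 higher in TRAP_Snap25 than in PreIP_Snap25, with overlap (exact two-sided permutation test, p = 0.8). No difference between these 2 transporters was shown in that line. The 3 acetylcholine genes, Chat, Slc18a3 (the vesicular acetylcholine transporter) and Slc5a7 (the choline transporter), rose in TRAP_Chat by 2.84, 2.90 and 3.11 on the log2 scale over PreIP_Chat. None of the 3 passed the test in TRAP_Snap25.

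Ratios of genes within a library depend little on its scaling. The log2 ratio of Slc6a5 to Gad1 was 2.84, 1.85 and 3.19 in TRAP_Chat, with a mean of 2.63 ± 0.69, and averaged 3.36 ± 0.04 in PreIP_Chat (SD, n = 3 each). The groups did not overlap (exact two-sided permutation test, p = 0.1, the smallest that 3 against 3 allows). The same ratio averaged 3.71 ± 0.14 in TRAP_Snap25 and 3.35 ± 0.20 in PreIP_Snap25, again without overlap (exact permutation p = 0.1) and in the opposite order. Slc32a1 over Gad1 averaged 0.39 ± 1.01 in TRAP_Chat and 1.66 ± 0.64 in TRAP_Snap25, also without overlap (exact permutation p = 0.1). Relative to Gad1, the transporters were therefore scarcer in the Chat pulldown than in the Snap25 pulldown in every library. Gad2 over Gad1 averaged 1.16 ± 0.28 in TRAP_Chat and 1.18 ± 0.50 in TRAP_Snap25, a difference of -0.02 (exact permutation p = 1). Slc32a1 over Slc17a6, inhibitory over excitatory vesicular transporter, averaged -0.75 ± 1.17 in TRAP_Chat and -0.01 ± 0.87 in TRAP_Snap25, with overlap (exact permutation p = 0.6). Slc32a1 over Slc18a3 averaged -6.04 ± 1.233 in TRAP_Chat and 0.88 ± 0.63 in TRAP_Snap25, without overlap (exact permutation p = 0.1). The inputs also differed in that last ratio, at -0.97 ± 0.42 in PreIP_Chat and 0.82 ± 0.38 in PreIP_Snap25. Slc18a3 itself averaged 184 ± 17.8 CPM in PreIP_Chat and 50.7 ± 24.1 CPM in PreIP_Snap25, with no call between the inputs. Over the 32 ratio tests no adjusted p fell under 0.4, and 3 libraries against 3 cannot pass the threshold.

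Levels of different genes were compared per kilobase of merged exons in GENCODE M21 (7639 bases for Gad1, 5876 for Gad2, 2797 for Slc32a1 and 7203 for Slc6a5). Slc6a5 was the most abundant, at a mean of 13.9 CPM per kb in TRAP_Chat, 68.5 in PreIP_Chat, 90.9 in TRAP_Snap25 and 59.2 in PreIP_Snap25. Slc32a1 followed with means of 7.96, 33.9, 59.6 and 30.7 CPM per kb in the same groups, then Gad2 with 5.86, 19.5, 19.2 and 23.4. Gad1 was the lowest, with 2.0, 6.27, 6.45 and 5.44 CPM per kb. The order Slc6a5, Slc32a1, Gad2, Gad1 held in 9 of 12 libraries. Levels of different genes were not tested against each other. Gad2 was above Slc32a1 in TRAP_Chat replicate 2 and in PreIP_Snap25 replicate 2. In TRAP_Snap25 replicate 3 Slc32a1 was above Slc6a5. Gad1 was the lowest of the 4 per kilobase in all 12 libraries. With the length of the principal transcript, 3355 bases for Gad1, the order also held in 9 libraries and Gad1 was lowest in 11.

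The spread within a group also differed between the genes. The coefficient of variation of Slc32a1 was 48.4% in TRAP_Chat, 19.5% in PreIP_Chat, 47.3% in TRAP_Snap25 and 41.8% in PreIP_Snap25. That of Gad1 was 10.1% in TRAP_Chat, 4.64% in PreIP_Chat, 17.5% in TRAP_Snap25 and 12.5% in PreIP_Snap25. Gad2 ranged from 9.25% to 21.6% over the groups and Slc6a5 from 4.60% to 37.8%. The lowest count of the 4 genes in any library was 132, for Slc32a1 in TRAP_Chat replicate 2.

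Over the 12 libraries the log2 CPM of the 4 genes correlated with each other, from r = 0.749 (Gad2 with Slc32a1) to r = 0.949 (Gad1 with Slc6a5). The libraries fall into groups of line and fraction, and the low TRAP_Chat group is shared by all pairs, so these are descriptions. The 8 genes outside the set whose log2 CPM was most like the mean of the 4 were Nrn1, Enc1, Tmem191c, Myo16, Kank4, Hapln1, Tpbg and Ago1. Their r over 12 libraries ran from 0.986 for Nrn1 to 0.958 for Ago1, out of 10157 genes ranked, and over the 6 pulldowns alone it was 0.995 for Nrn1 and 0.972 for Ago1.

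Other genes of GABA and glycine metabolism were taken from a list of 26, of which 25 passed the filter on low counts. In TRAP_Chat against PreIP_Chat 13 fell, 2 rose and 10 did not pass the test (of all genes 14.3% were lower and 12.6% higher), and in TRAP_Snap25 against PreIP_Snap25 9 fell, 1 rose and 15 did not (12.7% and 9.69% of all genes). Without PreIP_Chat replicate 2 or 3 the calls in the Chat line were 10 in all, beside 15, and without PreIP_Snap25 replicate 1 those in the Snap25 line were 6, beside 10. Among the carriers for uptake of GABA, 2 of the 3 listed fell in each line. Slc6a11 (GAT3, a GABA carrier of astrocytes) averaged 33.7 ± 6.89 CPM in TRAP_Chat and 177 ± 16.3 CPM in PreIP_Chat, a log2 fold change of -2.40. It averaged 42.1 ± 45.2 CPM in TRAP_Snap25 and 211 ± 90.7 CPM in PreIP_Snap25, a log2 fold change of -2.34. Slc6a13 (GAT2), which is also in the list of meningeal fibroblast markers, fell by 3.58 in the Chat line and by 2.64 in the Snap25 line. Slc6a9 (GlyT1, the glycine carrier found mainly on astrocytes) averaged 9.80 ± 1.07 CPM in TRAP_Chat and 73.4 ± 17.3 CPM in PreIP_Chat, a log2 fold change of -2.91. In the Snap25 line it averaged 12.6 ± 10.3 CPM in TRAP_Snap25 and 58.6 ± 20.1 CPM in PreIP_Snap25, a log2 fold change of -2.24. Slc6a5, another glycine carrier, had a positive estimate there. Of the 3 glycine transport genes in the list, which leaves out Slc6a5, 2 fell in the Snap25 line and 1 in the Chat line. Slc6a9 gave no call between the pulldowns (log2 fold change of TRAP_Chat over TRAP_Snap25 -0.34, adjusted p = 0.718 in edgeR). Slc38a3, a glutamine carrier of astrocytes, fell by 2.05 in the Chat line and by 2.08 in the Snap25 line.

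Genes of breakdown, precursor supply and glycine cleavage divided. Abat, the transaminase that breaks down GABA, averaged 119 ± 14.8 CPM in TRAP_Chat and 298 ± 17.3 CPM in PreIP_Chat, against 253 ± 26.4 CPM in TRAP_Snap25 and 259 ± 43.4 CPM in PreIP_Snap25. It fell by 1.33 in the Chat line (adjusted p = 0.000409), had a log2 fold change of -0.04 in the Snap25 line (adjusted p = 0.924), and was the single gene of the 25 called in the difference between the lines (-1.29, adjusted p = 0.0461 in edgeR). With a library left out, 0 of the 25 were called in that difference, except without TRAP_Chat replicate 2 or TRAP_Snap25 replicate 3. Slc38a1, a glutamine carrier of neurons, averaged 82.5 ± 19.2 CPM in TRAP_Chat and 171 ± 12.9 CPM in PreIP_Chat, against 192 ± 31.1 CPM in TRAP_Snap25 and 170 ± 17.7 CPM in PreIP_Snap25. Between the pulldowns Slc38a1 (log2 fold change -1.22, adjusted p = 0.00360) and Abat (-1.09, adjusted p = 0.00503 in edgeR) were lower in TRAP_Chat. One gene was higher there, Aldh1a1, an aldehyde dehydrogenase described as another route to GABA in mouse dopamine neurons (1.51, adjusted p = 0.0160 in edgeR). Aldh1a1 was not above its own input in the Chat line, at 36.7 ± 17.9 CPM in TRAP_Chat and 66.5 ± 17.1 CPM in PreIP_Chat. It fell by 2.32 in the Snap25 line, with 12.9 ± 2.13 CPM in TRAP_Snap25 and 64.4 ± 12.9 CPM in PreIP_Snap25. Gcsh, a carrier protein of the glycine cleavage system, rose in both lines, by 1.27 in the Chat line and 0.93 in the Snap25 line. Dld, a dehydrogenase shared by the glycine cleavage system and other complexes, rose by 0.66 in the Chat line.

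**Figure D4:**
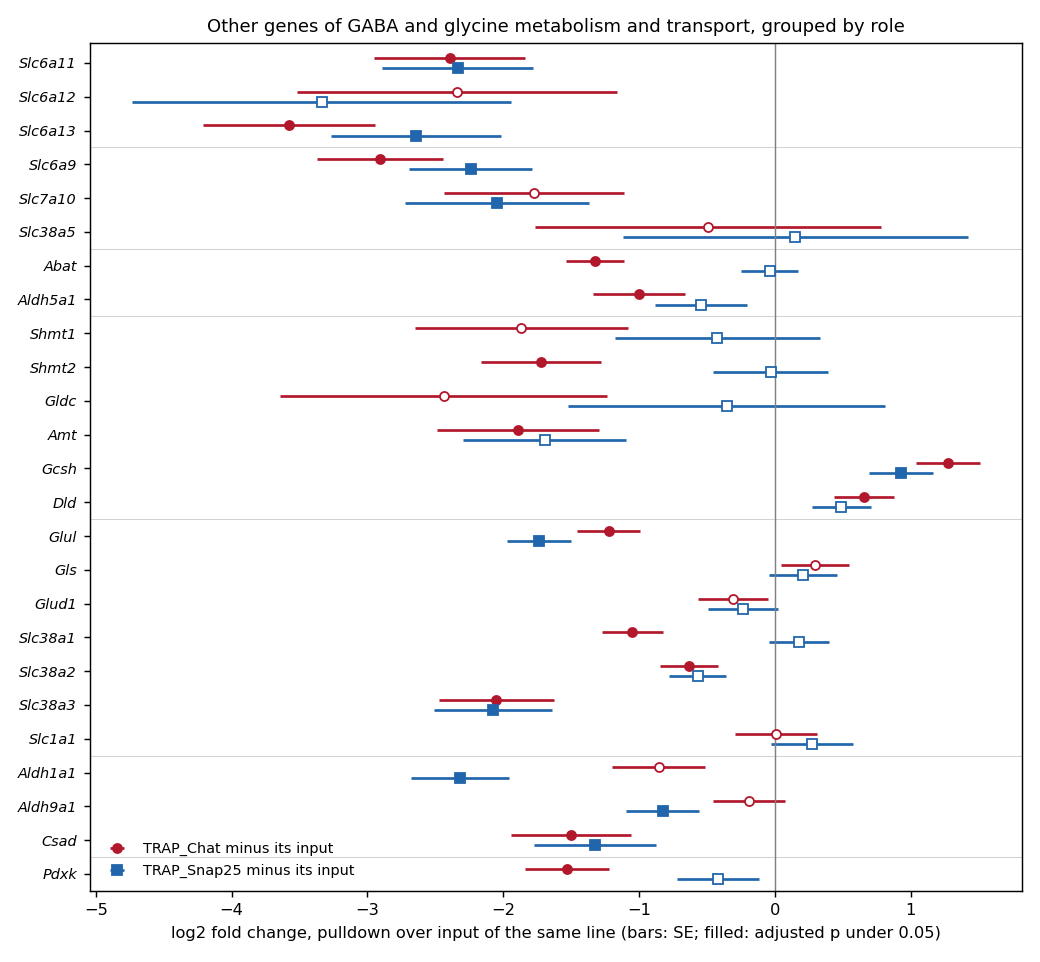
Log2 fold change of pulldown over input (x axis) for 25 tested genes of GABA and glycine metabolism and transport other than the 4 (y axis, grouped by role), in the Chat line (circles) and the Snap25 line (squares), with SE bars; filled symbols passed adjusted p under 0.05. The uptake carriers Slc6a11, Slc6a13 and Slc6a9 are filled and negative in both lines, and Abat, at -1.33 and -0.04, in the Chat line alone.

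Transcription factors that mark inhibitory interneurons were taken as a list of 11 (Pax2, Pax8, Lhx1, Lhx5, Gata2, Gata3, Tal1, En1, Sall3, Dmrt3 and Gbx1), all of which passed the filter. In TRAP_Chat 8 of 11 were lower than in PreIP_Chat, where 14.3% of all genes were. In TRAP_Snap25 0 passed the test against PreIP_Snap25, where 22.4% of all genes did. Between the pulldowns 9 were lower in TRAP_Chat, beside 2.77% of all genes. The medians of their log2 fold changes were -1.90, 0.29 and -1.98, beside -1.91, 0.43 and -2.21 for the 4 genes of synthesis and transport. In the difference between the lines 4 of 11 were called lower, beside 0.44% of all genes. Tal1, a factor of V2b interneurons, averaged 0.311 ± 0.056 CPM in TRAP_Chat and 3.61 ± 1.02 CPM in PreIP_Chat, a log2 fold change of -3.51 (adjusted p = 0.000533 in edgeR). It averaged 6.77 ± 2.97 CPM in TRAP_Snap25 and 3.83 ± 1.40 CPM in PreIP_Snap25. The TRAP_Chat libraries ran from 0.260 to 0.371 CPM for Tal1. By total counts alone, 3 counts correspond to between 0.182 and 0.224 CPM in these libraries. These 2 ranges differ in scale, since only the first includes the scaling factors, 0.991 to 1.165 in TRAP_Chat. The size of the Tal1 change in the Chat line thus rests on few counts. Dmrt3, a factor of dI6 interneurons, had 0, 1 and 8 counts in the TRAP_Chat libraries, against 50, 41 and 28 counts in PreIP_Chat. It had 79, 86 and 78 counts in TRAP_Snap25 and 50, 25 and 20 counts in PreIP_Snap25. Its fitted log2 fold change was -3.64 in the Chat line (adjusted p = 0.00408 in edgeR) and rests on so few counts that its size depends on the prior count.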

How the data were processed

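Pulldown and input RNA was extracted with TRIzol, DNase and RNeasy columns, and libraries were made with the Nugen kit Ovation RNA-Seq V2 for a HiSeq2500, per the labels' protocols. The authors deposited 1 table of raw read counts, with a line per Ensembl gene and a column per library. The submitters' processing notes name STAR and HTSeq. The sources used here do not give tool versions, the build, the annotation release or whether counting used strand. The table has 41736 lines for 40912 gene IDs, and 824 lines that repeat another exactly were dropped. Without a strand setting, reads cannot be assigned with certainty where genes overlap. Antisense Gad1os had 18 counts over all libraries beside 7343 for Gad1, and Gm14205 had 1 count beside 16707 for Slc32a1.

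Groups were taken from the sample titles. The tool was edgeR 4.0.16 (R 4.3.3) with filterByExpr, TMM scaling, and 1 quasi-likelihood fit of all 12 libraries with 1 mean per group. P-values are two-sided and adjusted over 15905 tested genes, with a threshold of 0.05. CPM are TMM-scaled, and ratios and correlations used log2 CPM with a prior count of 2. Per-length levels used GENCODE M21 exon lengths, and start regions came from RefSeq. The fit was also run on counts simulated from its own estimates of spread. Apart from planted changes all groups there shared the same means, unlike the real fractions, so that run gives the results no support. Alternatives were RLE scaling, total counts without mitochondrial genes, other filters, DESeq2 1.42.0, limma voom 3.58.1, the compared groups alone, each library left out, a replicate block and, chosen after seeing the data, principal transcript lengths. Marker sums were also split, after their values were seen, into the most abundant marker and the others.

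The 4 genes and the lists were chosen with earlier results of these data known. Of the pathway list, 2 genes are not reported here and stay out of its counts. Beside the 4, the text names called pathway genes averaging 1 CPM or more (at most 4 per direction and comparison) with Slc6a9, the 2 transcription factors that changed most, genes of other transmitters, Chat, Snap25 and the 8 genes most alike with a mean of at least 5 CPM.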

Additional observations from a re-analysis of the deposited data

Results flagged for a closer look

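The 4 genes differed between the lines in their change from input to pulldown, by the test of that difference in edgeR. The log2 difference, Chat line change minus Snap25 line change, was -1.89 for Gad1, -1.45 for Gad2, -3.04 for Slc32a1 and -2.92 for Slc6a5. Of all tested genes 0.44% were called in this direction. The call of Gad2 was lost in 9 of 19 alternatives and that of Slc32a1 in 2. Each TRAP_Chat library lay below each PreIP_Chat library for all 4 genes, as for 26.1% of all tested genes. The Snap25 libraries overlapped for Gad1, Gad2 and Slc32a1.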

How the results depend on the processing

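The 4 genes were called lower in TRAP_Chat against PreIP_Chat and against TRAP_Snap25 under each of the 14 alternatives. In the difference between the lines 2 to 4 were called when 1 library was left out, and in TRAP_Snap25 against PreIP_Snap25 1 was called with no filter on low counts, beside 0. The log2 fold change of Slc32a1 between the inputs ran from -0.12 (reversed, without PreIP_Snap25 replicate 2) to 0.49 with a library left out. Of the 25 pathway genes, calls were 10 to 15 in the Chat line (beside 15) and 6 to 11 in the Snap25 line (beside 10) when a library was left out, 5 between the pulldowns with no filter (beside 3), and, for the difference between the lines, 3 with no filter, 2 with DESeq2, 2 with limma voom, 0 with total counts without mitochondrial genes and 0 to 2 with a library left out (beside 1). Over all genes, calls between the pulldowns were 1073, and 1761 with no filter, 1772 with DESeq2, 382 from the compared groups alone and 671 to 1535 with a library left out. For the difference they were 166, and 453 with no filter, 501 with DESeq2 and 52 to 249 with a library left out. For the inputs they were 0, with 7 under no filter and 1 in DESeq2. For the Snap25 line they were 3558, with 2362 from the compared groups alone and 1973 to 4009 with a library left out, and for the Chat line 4273, with 2738 to 3914. The causes were not tested. All 224 alternative values of the ratios moved by no more than the replicate SD. With 3 libraries per group, leaving a library out cannot move a mean ratio further than that. For those values the outcome was fixed in advance and is no sign of stability. Where a library was left out, the remaining 2 shared the spread of all groups.

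Equal replicate numbers were not taken as pairs, since the deviations of an input and a pulldown with the same number correlated at 0.06, 0.102 and 0.127 in the Chat line and at -0.037, 0.167 and 0.147 in the Snap25 line. In the Chat line each library correlated best with its own number, which is a hint from the data. In the labels, the input and the pulldown that share a number also end in the same code, and what that code marks is not given. With the replicate block all 4 genes were called in the Chat line, 0 in the Snap25 line, 4 in the difference and 4 between the pulldowns, and all-gene calls were 4431, 3663, 206 and 920, with 0 for the inputs. Slc32a1 in the Snap25 line had an adjusted p of 0.0501 with the block.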
